A study of Mus musculus with 24 samples.

Results

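The SLAM (signalling lymphocytic activation molecule) family comprises 9 cell-surface receptors in the mouse genes measured here: Slamf1, Cd48, Slamf6, Slamf7, Slamf8, Slamf9, Ly9, Cd84 and Cd244a. They were chosen by gene symbol, and all 9 were found among the 55414 genes counted in every library. Bulk RNA-seq compared mice carrying a Srcap mutation with wild-type (WT) mice, all of the C57BL6/J strain, in 24 libraries forming 12 groups of 2. Srcap encodes the catalytic subunit of a chromatin remodeller that deposits the histone variant H2A.Z.

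At 2 weeks after transplantation there were bone-marrow libraries labelled B cells and bone-marrow libraries labelled T cells, each from Srcap mutant and from WT. Hematopoietic stem and progenitor cells (HSPCs) of both genotypes were profiled without treatment, 12 hours after intraperitoneal doxorubicin, 2 weeks after transplantation, and 20 weeks after competitive transplantation. The file headers call the mutant heterozygous in the untreated, doxorubicin and 20-week libraries and only "Mut" in the 2-week libraries. The sources used here give neither the allele nor the age of the animals, and they do not say whether the 2 libraries of a group came from separate animals. P-values therefore measure only the spread between these libraries, which may be technical. The extraction label names a sort of 30000 HSPCs for all 24 libraries, including those labelled B cells and T cells, so the sort behind those 8 is unclear.

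SLAM receptors are immunoglobulin-superfamily proteins of hematopoietic cells. Most bind a copy of themselves on a neighbouring cell; CD244 instead binds CD48, which is held to the membrane by a lipid anchor and has no signalling tail. The tails of SLAMF1, SLAMF6, LY9, CD84 and CD244 carry tyrosine switch motifs that recruit the small adaptors SAP (Sh2d1a) and EAT-2 (Sh2d1b1), or phosphatases when the adaptors are missing. SLAMF7 signals through EAT-2, and SLAMF8 and SLAMF9 have short tails without these motifs. In mouse bone marrow, surface CD150 (Slamf1) and CD48 are used to separate stem cells, which carry CD150 and lack CD48, from progenitors, and CD244 marks part of the progenitors.

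The 9 genes lie on chromosome 1 between positions 171386761 and 172418135 (GRCm39), a stretch of 1.03 Mb that holds 49 genes. Their order along the chromosome is Cd244a, Ly9, Slamf7, Cd48, Slamf1, Cd84, Slamf6, Slamf9 and Slamf8. Ly9, on the minus strand, lies inside the span of Cd244a, on the plus strand. Slamf6 (ENSMUSG00000015314, plus strand, 171745082 to 171780737) overlaps at its 5′ end an antisense gene, Gm37065. Counts were made with the strand setting of the kit, per the file headers, so reads of such opposite-strand pairs were assigned by strand.

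RefSeq promoter windows of 300 bases (250 before and 50 after the gene start, GRCm38.p6) matched 8 of the 9 genes, all but Ly9. The 4 printed here belong to the receptors on which the results turn: Slamf6, with the only mutant-WT difference that passed the test; Slamf9 and Cd84, with the largest excess over HSPCs in the libraries labelled B cells and T cells; and Slamf1, the stem-cell marker. Capitals mark matches to 7 motifs searched on both strands.
Slamf6: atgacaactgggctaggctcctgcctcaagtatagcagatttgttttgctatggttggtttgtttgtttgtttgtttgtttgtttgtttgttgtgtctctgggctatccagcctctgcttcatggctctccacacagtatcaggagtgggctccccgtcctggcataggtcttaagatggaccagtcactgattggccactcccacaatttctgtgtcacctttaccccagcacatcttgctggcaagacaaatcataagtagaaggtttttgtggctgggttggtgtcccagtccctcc
Slamf9: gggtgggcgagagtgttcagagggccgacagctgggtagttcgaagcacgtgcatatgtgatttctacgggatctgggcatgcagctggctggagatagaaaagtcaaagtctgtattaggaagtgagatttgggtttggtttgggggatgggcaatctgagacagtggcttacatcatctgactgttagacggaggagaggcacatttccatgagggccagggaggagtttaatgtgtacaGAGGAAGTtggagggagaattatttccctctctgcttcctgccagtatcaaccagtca
Cd84: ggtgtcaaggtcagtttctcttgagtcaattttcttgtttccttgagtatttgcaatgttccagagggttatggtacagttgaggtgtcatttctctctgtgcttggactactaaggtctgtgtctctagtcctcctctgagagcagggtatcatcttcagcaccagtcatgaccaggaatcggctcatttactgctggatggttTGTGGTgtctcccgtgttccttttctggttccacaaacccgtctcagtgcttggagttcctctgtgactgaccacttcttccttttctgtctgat
Slamf1: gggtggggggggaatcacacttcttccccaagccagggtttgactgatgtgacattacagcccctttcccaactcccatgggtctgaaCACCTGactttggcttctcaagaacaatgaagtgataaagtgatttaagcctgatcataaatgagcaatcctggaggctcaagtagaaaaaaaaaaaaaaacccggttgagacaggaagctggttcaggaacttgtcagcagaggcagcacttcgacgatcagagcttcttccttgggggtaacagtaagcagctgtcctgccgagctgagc
These windows are chr1:171917212-171917511 for Slamf6, chr1:172475110-172475409 for Slamf9, chr1:171839447-171839746 for Cd84 and chr1:171766882-171767181 for Slamf1, all on the plus strand. The motifs searched for are bound by factors of blood cells, and each is given with its share of 32851 promoter windows. The PU.1 motif was GAGGAAGT, held by 3.2% of the windows. The RUNX motif was TGTGGT, held by 16.8%. The E2A motif was CAGGTG, held by 20.2%. The C/EBP motif was TTGCNNAA, held by 10.8%. The OCT motif was ATGCAAAT, held by 1.74%. The GATA motif was AGATAA, held by 11.2%. The EBF1 motif, given by name alone, was held by 0.904%. Slamf9 held the PU.1 letters from position -8, Cd84 the RUNX letters from position -45, and Slamf1 the E2A letters on the reverse strand from position -162, counted from the gene start. Cd48 held the RUNX letters from position -76 and Cd244a the C/EBP letters on the reverse strand from position -141. In the windows of Slamf6, Slamf7 and Slamf8 none of the 7 was found. A match is a description of the letters and no evidence of binding.

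Total counts per library ranged from 26.4e6 to 78.4e6. Levels are given as CPM, each gene's count as a share of the library's gene counts on one common scale, and differences as edgeR log2 fold changes after TMM scaling, with the standard error (SE) and a Benjamini-Hochberg adjusted p over all genes tested. A gene was called when that adjusted p was under 0.05. Srcap itself was at 2.83 to 20.3 CPM and was not called between genotypes in any comparison (mean over HSPC conditions 0.05 ± 0.18, adjusted p 1 by edgeR), and no deposited value shows the mutation. Of the gate genes of the HSPC label, Kit was at 311 to 601 CPM in HSPC libraries, against 3.74 to 5.93 in B cell libraries. Ly6a, which encodes Sca-1, was at 165 to 206 CPM in untreated, 30.8 to 48.0 CPM in 2-week and 440 to 484 CPM in 20-week HSPCs, against 15.4 to 29.4 CPM in B cell libraries, so the 2-week HSPC libraries lay close to the B cell libraries in it. Immunoglobulin genes and Jchain took 3.66% to 6.22% of counts in untreated, 0.845% to 1.86% in 2-week and 16.9% to 26.7% in 20-week HSPCs.

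The libraries labelled T cells went against that label. The 11 T cell marker genes listed summed to 12.4 and 13.2 CPM in the mutant and 19.0 and 19.5 CPM in the WT libraries of that label, below the 34.9 to 46.4 CPM of the 2-week HSPC libraries. Lat led those HSPC sums, with means of 15 CPM in mutant and 27.6 CPM in WT. Cd3d went the other way, with means of 8.38 CPM in mutant and 7.69 CPM in WT libraries labelled T cells. It was under 1 CPM in WT 2-week HSPCs. In the mutant libraries labelled T cells the other 10 markers were under 1 CPM. The 12 granulocyte markers, led by S100a9, Ngp and S100a8, held 15.2% and 16.1% of counts in the mutant and 14% and 14.6% in the WT libraries of that label. They are called T-labelled libraries below. The same granulocyte markers summed to 24390 CPM in untreated WT HSPC replicate 1, against 269 to 545 CPM in the other untreated HSPC libraries, and results that change without that library are named where they are given.

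Compared per kilobase of annotated exonic length, Cd48 had the highest level of the 9 receptors in all 12 groups. That length counts all annotated exons, 1189 bases for Cd48 and 10832 for Slamf6, so this order depends on the annotation. By mean CPM without length, Slamf6 (410 in mutant, 321 in WT) and Slamf7 (319 and 278) exceeded Cd48 (156 and 145) in B cell libraries. Cd84 (372 and 338) exceeded Cd48 (85.7 and 87.7) in T-labelled libraries. Per kilobase, the group means of Cd48 ran from 72.05 ± 12.6 CPM per kb in mutant T-labelled libraries to 133.6 ± 9.40 in WT 2-week HSPCs (SD, n = 2 each). Cd48 made up 39.4% to 77% of the summed level of the 9 receptors. The receptor in second place changed with the label. In untreated, doxorubicin and 2-week HSPCs it was Ly9, a homophilic receptor, at 12.0 to 26.6 CPM per kb.

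In B cell libraries Slamf7 came second, at 69.7 ± 0.389 CPM per kb in mutant and 60.7 ± 4.53 in WT, followed by Slamf9 at 50.9 ± 9.07 in mutant and 41.4 ± 7.38 in WT (SD, n = 2 each). Within each genotype these Slamf7 and Slamf9 means lay more than 1 SD of either apart. In T-labelled libraries Cd84 came second, at 59.3 ± 5.45 CPM per kb in mutant and 54.0 ± 1.68 in WT, below Cd48 at 72.05 ± 12.6 and 73.8 ± 12.1. In WT, Cd84 was at 52.8 and 55.1 and Cd48 at 65.2 and 82.3 CPM per kb, without overlap. In mutant, Cd84 was at 55.5 and 63.18 and Cd48 at 63.16 and 80.9 CPM per kb, ranges that only just overlapped.

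**Figure D1:**
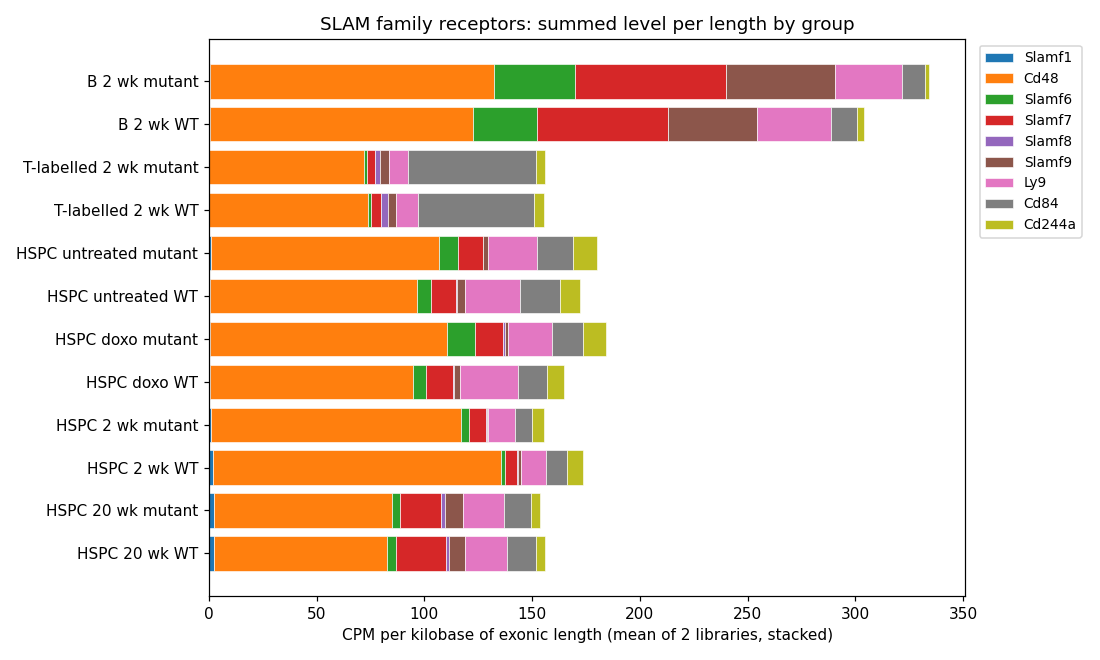
Summed level of the 9 SLAM receptors per group, in CPM per kb of exonic length (horizontal axis, mean of 2 libraries), with mutant above WT in each pair of bars. Cd48 is the widest segment in all 12 groups, Slamf7 and Slamf9 widen in the B cell bars, and Cd84 widens in the T-labelled bars.

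At 2 weeks the B cell libraries carried far more transcript of 3 receptors than HSPCs. Slamf6, a homophilic receptor of B, T and natural killer cells, was at 410 and 409 CPM in mutant and 302 and 339 CPM in WT B cell libraries, against 45.7 and 36.8 CPM in mutant and 19.6 and 27.0 CPM in WT HSPCs. Every B cell library was above every HSPC library. The edgeR difference was 3.67 ± 0.13 (SE), 12.7-fold, with an adjusted p of 6.29e-11.

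Slamf7, known from plasma cells and natural killer cells, was at 318 and 320 CPM in mutant and 293 and 263 CPM in WT B cell libraries, against 46.1 and 23.9 CPM in mutant and 19.8 and 29.8 CPM in WT HSPCs, again without overlap. It was 10.9-fold higher by edgeR (3.45 ± 0.22, adjusted p 4.91e-07).

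Slamf9, a receptor with a short tail, showed the largest difference. It was at 58.4 and 75.2 CPM in mutant and 47.5 and 61.2 CPM in WT B cell libraries, against 0.141 and 1.10 CPM in mutant and 1.03 and 1.87 CPM in WT HSPCs. The lowest HSPC value, in mutant replicate 1, rests on 7 counts. The fitted ratio was 74.2-fold (6.21 ± 0.46, adjusted p 2.35e-06 by edgeR), and the groups did not overlap.

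In all, 7 of the 9 receptors were called between B cell and HSPC libraries, where 53.9% of all genes tested were called, 28.3% as higher and 25.5% as lower. Higher in B cell libraries were also Ly9 (1.56 ± 0.14, adjusted p 2.76e-07 by edgeR) and Cd84 (0.50 ± 0.09, adjusted p 0.000188 by edgeR). Lower were Slamf8, known from myeloid cells, at 0.136 to 0.727 CPM in B cell libraries against 1.98 to 2.96 CPM in HSPCs (7.16-fold lower), and Cd244a, at 8.62 to 16 CPM against 25.8 to 39.1 CPM (2.27-fold lower). The Slamf8 values of the B cell libraries rest on 7 and 9 counts in mutant and 16 and 37 counts in WT. Cd48 was at 130 to 162 CPM in B cell libraries against 131 to 167 CPM in HSPCs, and its 95% interval ran from -0.09 to 0.39. Slamf1 was not called either (-0.77, adjusted p 0.267 by edgeR). The 10 listed B cell markers summed to 9274 and 10640 CPM in mutant and 7941 and 9275 CPM in WT B cell libraries, against 1233 and 820 CPM in mutant and 435 and 662 CPM in WT HSPCs. Granulocyte markers summed to 8760 and 3697 CPM in mutant and 8615 and 13150 CPM in WT B cell libraries, against 3424 and 3689 CPM in mutant and 1121 and 3424 CPM in WT HSPCs. Erythroid markers summed to 6188 to 16460 CPM in B cell libraries, against 964 to 1565 CPM in HSPCs. The part of these transcripts in the Cd84 value was not tested. In such bulk libraries more cells of a type and more RNA per cell cannot be told apart.

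The T-labelled libraries had another set of SLAM transcripts, led by Cd84. Cd84, a homophilic receptor also found on myeloid cells and platelets, was at 348 and 396 CPM in mutant and 331 and 346 CPM in WT T-labelled libraries, against 50.1 and 49.2 CPM in mutant and 59.5 and 57.4 CPM in WT HSPCs. All 4 T-labelled libraries were above all 4 HSPC libraries. The edgeR difference was 3.56 ± 0.09, 11.8-fold, with an adjusted p of 2.03e-12.

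Slamf8 was at 6.43 and 7.27 CPM in mutant and 10.2 and 8.51 CPM in WT T-labelled libraries, against 2.27 and 2.96 CPM in mutant and 2.03 and 1.98 CPM in WT HSPCs, without overlap (2.64 ± 0.32, adjusted p 4.86e-06 by edgeR). Slamf9 was at 4.38 to 6.12 CPM in T-labelled libraries, above the 0.141 to 1.87 CPM of HSPCs (3.38 ± 0.43, adjusted p 7.83e-05 by edgeR). Slamf1 was almost missing: it had 1 and 22 counts in mutant and 4 and 14 counts in WT T-labelled libraries, or at most 0.384 CPM, against 3.13 and 7.36 CPM in mutant and 10.6 and 10.5 CPM in WT HSPCs. The fitted difference of -4.32 ± 0.67 (adjusted p 6.86e-05 by edgeR) rests on these few counts and depends on the fit's prior count.

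In the T-labelled libraries 5 of 9 receptors were called against HSPCs, where 61.9% of all genes were called, 32.6% as higher and 29.3% as lower. Ly9 was the fifth, called higher at 0.50 ± 0.13 (adjusted p 0.00507 by edgeR), but its direction turned to -0.34 (adjusted p 0.0337 by edgeR) when total counts replaced TMM. That scaling moved the median of all genes from 0.03 to -0.79 in this comparison. It also put Cd48 (-0.77), Slamf6 (-0.91), Slamf7 (-0.64) and Cd244a (-0.59) past the threshold as lower, and thus all 9 were called. Under TMM with all libraries these 4 lay between -0.07 and 0.24 and were not called. Without 2-week HSPC mutant replicate 1, Slamf7 was at 0.50 under TMM, opposite in direction to its total-count value. Slamf1, Slamf8, Slamf9 and Cd84 kept their direction and their call under both scalings. The 10 monocyte and macrophage markers listed summed to 1992 and 2243 CPM in mutant and 1975 and 2081 CPM in WT T-labelled libraries, against 271 and 462 CPM in mutant and 300 and 367 CPM in WT HSPCs. The part of these and of the granulocyte transcripts in the Cd84 and Slamf8 levels was not tested.

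Set directly against each other, B cell and T-labelled libraries differed in 8 of 9 receptors, with 52.9% of all genes called, 27% as higher in B cell libraries and 25.9% as lower. Slamf6 (3.74 ± 0.13, adjusted p 2.16e-11), Slamf7 (3.26 ± 0.22, adjusted p 5.74e-07), Slamf1 (3.55 ± 0.65, adjusted p 0.000386), Slamf9 (2.83 ± 0.37, adjusted p 0.000132) and Ly9 (1.06 ± 0.13, adjusted p 1.03e-05) were higher in B cell libraries by edgeR. Slamf8 was 44.8-fold lower there (-5.49 ± 0.38, adjusted p 1.51e-08 by edgeR), a value that rests on 7 to 37 counts per B cell library. Cd84 was 8.31-fold lower (-3.06 ± 0.09, adjusted p 8.33e-12 by edgeR). Cd244a was also lower (-1.43 ± 0.15, adjusted p 1.22e-06 by edgeR). Cd48 differed by 0.08 under TMM with an interval from -0.16 to 0.32, and by 0.80 with total counts (adjusted p 1.81e-05 by edgeR).

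**Figure D2:**
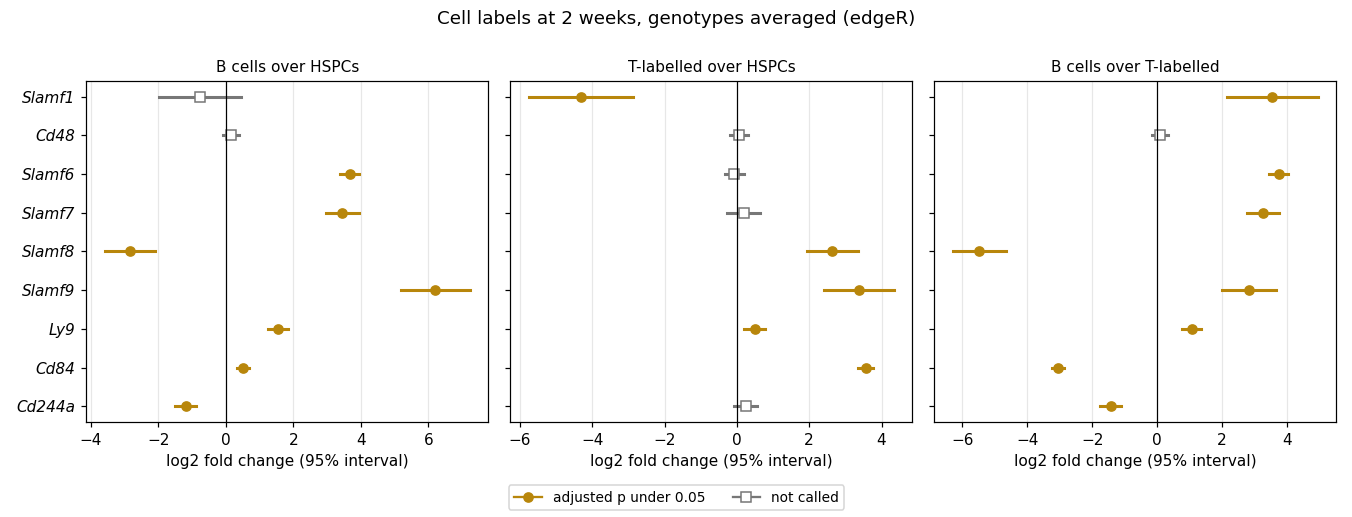
Differences of the 9 receptors between library labels at 2 weeks after transplantation, as log2 fold changes with 95% intervals (horizontal axis), for B cell over HSPC, T-labelled over HSPC and B cell over T-labelled, 4 libraries each. Slamf6, Slamf7 and Slamf9 lie far to the right for B cell over HSPC and Cd84 for T-labelled over HSPC; the small Ly9 value of 0.50 in the T-labelled panel becomes -0.34 with total-count scaling.

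Within HSPCs, the receptors differed little after doxorubicin and much after transplantation. At 12 hours after doxorubicin, an anthracycline that damages DNA, none of the 9 receptors was called against untreated HSPCs by edgeR or by DESeq2, and in edgeR 1 was under an unadjusted p of 0.05; 0.0154% of all genes were called. That receptor was Cd84, at 84.5, 97.1, 90.9 and 81.1 CPM after doxorubicin (mutant replicates first, then WT) against 110, 99.1, 123 and 110 CPM untreated (-0.30 ± 0.10, adjusted p 0.717 by edgeR). These values did not overlap.

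At 2 weeks after transplantation 8 of 9 receptors were called against untreated HSPCs, 2 higher and 6 lower, where 46.1% of all genes were called, 21.2% as higher and 24.9% as lower. At 20 weeks 6 of 9 were called, 4 higher and 2 lower, where 23.6% of all genes were called, 13.1% as higher and 10.6% as lower. Library sets and conditions coincide: the headers place untreated and doxorubicin libraries in one directory, 20-week libraries in another and all 2-week libraries in yet another. The 2-week HSPC libraries also express Xist (545 to 1339 CPM) and almost no Ddx3y, whereas the other HSPC libraries express Ddx3y (32.6 to 124 CPM) and almost no Xist. Where the 2-week libraries are compared with the others, condition, directory and the sex of the cells cannot be told apart. For 20 weeks against untreated the sex is the same on both sides, and condition and directory cannot be told apart. Beside them, of 12 listed surface markers used to sort stem and progenitor cells, edgeR called 3 higher and 9 lower at 2 weeks and 5 higher and 2 lower at 20 weeks, each against untreated. At 2 weeks Ly6a was at -2.14, Procr at -2.92 and Flt3 at -1.67, whereas Itga2b was at 2.82, Fcgr3 at 2.96 and Eng at 0.41. The Fcgr3 value leans on untreated WT replicate 1, the library rich in granulocyte markers, where Fcgr3 was at 70.0 CPM. In the other untreated libraries Fcgr3 was at 1.37 to 2.75 CPM, and at 2 weeks at 53.4 to 74.5 CPM. At 20 weeks Ly6a was at 1.69, Procr at 1.09, Esam at 1.38, Itga2b at 1.60 and Eng at 0.39, whereas Flt3 was at -0.81 and Il7r at -1.25.

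Slamf1 and Cd48, the pair used to separate stem cells from progenitors, were measured as follows. Slamf1 was at 6.49, 3.99, 3.96 and 4.46 CPM in untreated HSPCs, at 3.13, 7.36, 10.6 and 10.5 CPM at 2 weeks and at 13.2, 17.0, 19.1 and 10.2 CPM at 20 weeks (mutant replicates first, then WT). All 20-week libraries lay above all untreated ones (2.01 ± 0.27, 4.04-fold, adjusted p 6.28e-05 by edgeR). The 2-week libraries overlapped the untreated ones, and the call there (0.74 ± 0.27, adjusted p 0.0302 by edgeR) was lost with total counts, with the compared groups fitted alone, and without any 1 of 6 libraries. These were both untreated WT, untreated mutant replicate 2, both 2-week WT and 2-week mutant replicate 2, with values of 0.39 (adjusted p 0.225) to 0.77 by edgeR.

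Cd48 was at 117, 135, 115 and 114 CPM untreated, at 146, 131, 167 and 151 CPM at 2 weeks and at 114, 81.6, 108 and 82.3 CPM at 20 weeks. The 2-week libraries were slightly higher than the untreated ones (0.39 ± 0.11, adjusted p 0.00733 by edgeR), and this call was lost without untreated mutant replicate 1 (adjusted p 0.0512 by edgeR) or 2-week mutant replicate 1 (adjusted p 0.0528 by edgeR). At 20 weeks Cd48 was not called against untreated. The ratio of Cd48 to Slamf1, per length, was 93.1 and 175 in mutant and 150 and 132 in WT untreated HSPCs, 241 and 91.8 in mutant and 81.6 and 74.3 in WT at 2 weeks, and 44.7 and 24.8 in mutant and 29.3 and 41.6 in WT at 20 weeks. All 4 of the 20-week ratios lay below every ratio of the other HSPC libraries.

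Cd244a, the receptor for CD48, was lower at both times after transplantation. It was at 51.9, 55.1, 46.1 and 44.7 CPM untreated, at 25.8, 28.7, 39.1 and 34.2 CPM at 2 weeks and at 21.7, 19.3, 25.9 and 14.6 CPM at 20 weeks, mutant replicates first. Neither transplanted condition overlapped the untreated libraries. The differences were -0.56 ± 0.13 (adjusted p 0.00145 by edgeR) at 2 weeks and -0.93 ± 0.13 (adjusted p 7.32e-05 by edgeR) at 20 weeks.

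Slamf7 and Slamf9 moved in both directions over these conditions. Slamf7 was at 47.0, 56.4, 47.4 and 62.1 CPM untreated, at 46.1, 23.9, 19.8 and 29.8 CPM at 2 weeks and at 68.1, 105, 98.3 and 112 CPM at 20 weeks. It was lower at 2 weeks (-0.75 ± 0.24, adjusted p 0.0246 by edgeR) and higher at 20 weeks (1.21 ± 0.24, adjusted p 0.00428 by edgeR). In these CPM, without TMM scaling, both transplanted conditions lay on their own side of the untreated range. With TMM-scaled library sizes the 2-week and untreated ranges overlapped. Mutant replicate 1 was then at 40.42 CPM at 2 weeks and at 39.95 CPM untreated. The 2-week call was lost without untreated WT replicate 2, untreated mutant replicate 2, 2-week WT replicate 1 or 2-week mutant replicate 2 (-0.55 to -0.69).

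Slamf9 was at 2.87, 2.20, 3.73 and 5.56 CPM untreated, at 0.141, 1.10, 1.03 and 1.87 CPM at 2 weeks and at 9.59, 13, 8.56 and 11.2 CPM at 20 weeks, 3 ranges that did not overlap. It was called lower at 2 weeks (-1.82 ± 0.42, adjusted p 0.00153 by edgeR) and higher at 20 weeks (1.99 ± 0.40, adjusted p 0.00155 by edgeR). Beside these values stand the immunoglobulin shares given above and the plasma-cell transcripts. The listed plasma-cell genes summed to 4455 to 5170 CPM in mutant and 3518 to 6941 CPM in WT untreated HSPCs, to 676 to 715 CPM in mutant and 580 to 1195 CPM in WT at 2 weeks, and to 11190 to 14420 CPM in mutant and 14730 to 16950 CPM in WT at 20 weeks. Their part in the Slamf7 and Slamf9 values was not tested.

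Slamf6 was at 79.3, 114, 62.6 and 69.8 CPM untreated, at 45.7, 36.8, 19.6 and 27.0 CPM at 2 weeks and at 52.5, 36.5, 49.0 and 46.4 CPM at 20 weeks. Both transplanted conditions were below every untreated library. The 2-week difference was -1.27 ± 0.15 (adjusted p 1.53e-06 by edgeR). The 20-week call (-0.44 ± 0.15, adjusted p 0.0377 by edgeR) was lost without any 1 of 6 libraries, namely both untreated WT, untreated mutant replicate 2, both 20-week WT and 20-week mutant replicate 2 (-0.30 to -0.52).

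Slamf8 was scarce in untreated HSPCs, at 1.71, 0.854, 1.23 and 1.85 CPM, and at 4.93, 5.13, 5.32 and 4.90 CPM at 20 weeks, all above the untreated libraries (2.20 ± 0.42, 4.61-fold, adjusted p 0.00101 by edgeR). At 2 weeks it was not called (0.78, adjusted p 0.128 by edgeR). Ly9 and Cd84 were called lower at 2 weeks, by -0.91 ± 0.10 (adjusted p 1.08e-06) and -0.95 ± 0.10 (adjusted p 7.19e-07 by edgeR). Ly9 was at 35.8 to 44.4 CPM there, below the 71.5 to 87.3 CPM of untreated HSPCs, and Cd84 at 49.2 to 59.5 CPM, below 99.1 to 123 CPM. At 20 weeks Ly9 and Cd84 were called lower only with total counts (-0.33, adjusted p 0.0165, and -0.45, adjusted p 0.00461 by edgeR). That scaling moved the median of all genes at 20 weeks from 0.02 to -0.33 and the share of called genes that were higher from 55.3% to 13.2%.

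Between 20 and 2 weeks, 9 of 9 receptors were called, where 42% of all genes were called, 23% as higher and 19% as lower. The largest value was 3.81 for Slamf9, 14.1-fold higher at 20 weeks (adjusted p 1.85e-06 by edgeR), and 7 of the 9 were higher. Cd48 and Cd244a were lower (-0.35, adjusted p 0.0154, and -0.37, adjusted p 0.025 by edgeR). Both calls were lost without the filter on low counts and with the compared groups fitted alone. The Cd48 call was also lost without 20-week WT replicate 2, 20-week mutant replicate 2 or 2-week WT replicate 1, and the Cd244a call without any of these or 2-week mutant replicate 2.

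**Figure D3:**
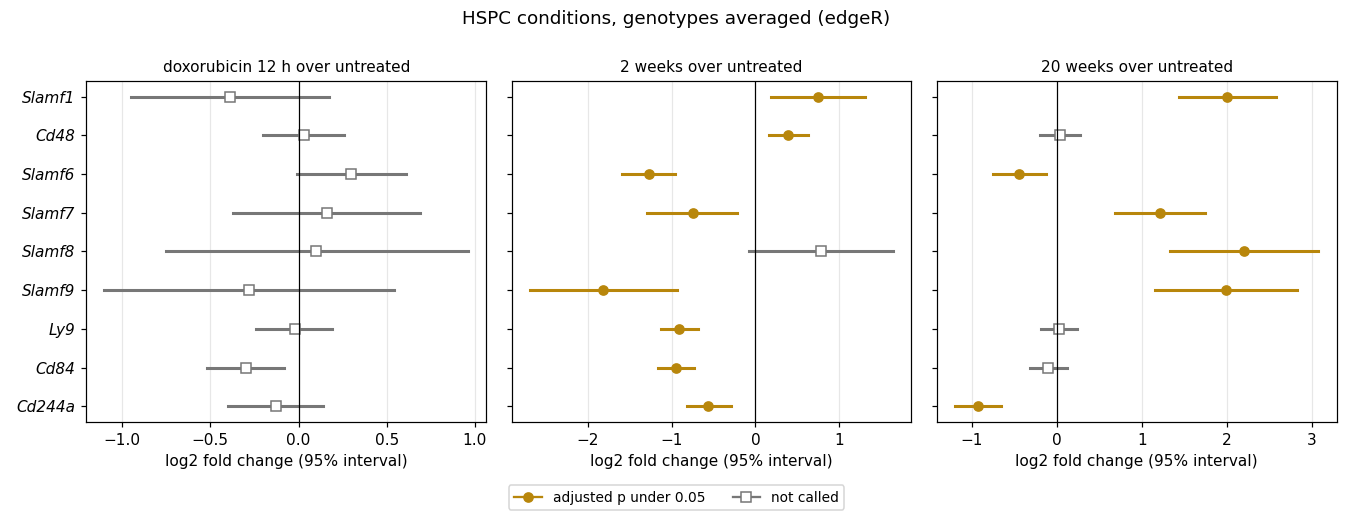
Differences of the 9 receptors in HSPCs after doxorubicin, 2 weeks and 20 weeks against untreated HSPCs, as log2 fold changes with 95% intervals (horizontal axis), 4 libraries per condition. The doxorubicin values lie near 0, Slamf7 and Slamf9 lie left of 0 at 2 weeks and right of 0 at 20 weeks, and Cd244a lies left of 0 at both times.

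Between genotypes, Slamf6 was the only receptor called, higher in Srcap mutant than in WT HSPCs. It was at 79.3 and 114 CPM in mutant against 62.6 and 69.8 CPM in WT untreated HSPCs, at 122 and 154 CPM against 62.9 and 73.8 CPM after doxorubicin, at 45.7 and 36.8 CPM against 19.6 and 27.0 CPM at 2 weeks, and at 52.5 and 36.5 CPM against 49.0 and 46.4 CPM at 20 weeks. Mutant libraries lay above WT libraries in the first 3 conditions, and the genotypes overlapped at 20 weeks. Over the mean of the 4 conditions the difference was 0.55 ± 0.10 (1.46-fold, adjusted p 0.046 by edgeR), and 1 of 9 receptors was called against 0.133% of all genes, 0.0359% as higher and 0.0973% as lower. Leaving out any 1 of 10 of the 16 libraries ended this call, with values of 0.47 to 0.57 and adjusted p of 0.0735 to 0.145 by edgeR. These were untreated WT replicate 1, untreated mutant replicate 2, both doxorubicin WT, doxorubicin mutant replicate 2, 2-week WT replicate 1, 2-week mutant replicate 1, both 20-week WT and 20-week mutant replicate 1. DESeq2 gave an adjusted p of 0.000729 for the same mean.

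Taken condition by condition, edgeR called none of the 9 receptors. In untreated HSPCs the unadjusted p of 1 receptor was under 0.05, that of none was past the DESeq2 threshold, and edgeR called 0% of all genes. After doxorubicin the unadjusted p was under 0.05 for 3 receptors, and DESeq2 called 1. Over all genes edgeR called 0.0154% there, and DESeq2 called 265 genes. At 2 weeks the unadjusted p was under 0.05 for 4 receptors, and DESeq2 called 1. Over all genes edgeR called 0.138% there, and DESeq2 called 259 genes. At 20 weeks no receptor reached either an unadjusted p under 0.05 or a call by DESeq2 (0.00512% of all genes called by edgeR). The share of all genes under an unadjusted p of 0.05 is not given here, so counts at that threshold are description only. The receptor called by DESeq2 was Slamf6 in both cases: 0.95 ± 0.21 after doxorubicin (1.93-fold, adjusted p 0.124 by edgeR and 0.00835 by DESeq2) and 0.86 ± 0.21 at 2 weeks (1.81-fold, adjusted p 0.143 by edgeR and 0.019 by DESeq2). Without the filter on low counts edgeR called it in both conditions (adjusted p 0.000127 and 0.00179). In untreated HSPCs Slamf6 was at 0.52 ± 0.21 (adjusted p 0.896 by edgeR), and at 20 weeks at -0.14 with an interval from -0.58 to 0.30.

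Whether the Slamf6 difference itself varied between conditions was tested as a difference of differences. The difference at 20 weeks minus that in untreated HSPCs was -0.66 (adjusted p 1 by edgeR), and minus that at 2 weeks -1.0 ± 0.30 (adjusted p 0.444 by edgeR). The difference after doxorubicin minus that at 20 weeks was 1.09 ± 0.30 (adjusted p 0.527 by edgeR). None of these passed the test, but without the filter on low counts edgeR called the last 2 of the 3 (-0.98, adjusted p 0.0362, and 1.09, adjusted p 0.01). Over 9 such comparisons, 4 of them chosen after seeing the data, edgeR called none of the 9 receptors, and DESeq2 called none in them either. Without the filter on low counts edgeR also called Slamf9 in the B cell minus HSPC (1.79, adjusted p 0.00186) and the T-labelled minus HSPC comparison (1.67, adjusted p 0.00963). At an unadjusted p under 0.05 the other members were Slamf1, Slamf8, Ly9, Cd84 and Cd244a, and edgeR called 0% of all genes in 5 of the 9 comparisons. In the others it called 0.0158% (B cell minus HSPC), 0.0105% (T-labelled minus HSPC), 0.0102% (doxorubicin minus 2 weeks) and 0.00526% (B cell minus T-labelled).

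B cell transcripts stand beside the Slamf6 values. The 10 listed B cell markers summed to 1282 and 1862 CPM in mutant against 1174 and 1321 CPM in WT untreated HSPCs, to 1966 and 1971 CPM against 1222 and 1576 CPM after doxorubicin, to 1233 and 820 CPM against 435 and 662 CPM at 2 weeks, and to 1648 and 1448 CPM against 1337 and 1497 CPM at 20 weeks. Mutant sums lay above WT sums after doxorubicin and at 2 weeks and overlapped them in the other conditions. By edgeR none of the 10 was called over the mean of the conditions, with 6 under an unadjusted p of 0.05, and DESeq2 called 1. Within conditions edgeR called none of them either, with 1 under an unadjusted p of 0.05 after doxorubicin and 8 at 2 weeks, and DESeq2 called 1 after doxorubicin and 4 at 2 weeks. Over all genes DESeq2 called 324 over the mean, 265 after doxorubicin and 259 at 2 weeks. The share of all genes under an unadjusted p of 0.05 is not given here, so the marker counts are description only. The part of the B cell transcripts in the Slamf6 difference was not tested.

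The antisense gene Gm37065 (ENSMUSG00000104413, minus strand, 171737524 to 171746923, GRCm39), which runs 1842 bases past the Slamf6 start, followed the same pattern. It was at 14.4 and 12.4 CPM in mutant against 5.72 and 7.89 CPM in WT untreated HSPCs, at 14.6 and 14.9 CPM against 7.53 and 7.53 CPM after doxorubicin, at 7.90 and 5.61 CPM against 2.37 and 2.99 CPM at 2 weeks, and at 6.97 and 4.02 CPM against 5.22 and 5.04 CPM at 20 weeks. As with Slamf6, the genotypes were apart in the first 3 conditions and overlapped at 20 weeks. Among 21 tested neighbours within the stretch it was the only one called over the mean of the conditions (0.82 ± 0.16, adjusted p 0.0464 by edgeR), and it was named after its values were seen. That call was lost when any 1 of 13 of the 16 libraries was left out (0.72 to 0.89 over all 16, adjusted p up to 0.154 by edgeR). It was kept without untreated WT replicate 2, 20-week mutant replicate 2 or 2-week mutant replicate 2. It was also lost with total counts (adjusted p 0.0507 by edgeR), and DESeq2 called it (adjusted p 0.000129). Its counts were 9.14% to 21.4% of those of Slamf6. It was also higher in B cell libraries than in HSPCs (4.11, adjusted p 2.61e-10 by edgeR).

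Other receptors reached an unadjusted p under 0.05 between genotypes but no adjusted threshold in edgeR. Slamf9 had lower values in mutant HSPCs after doxorubicin (1.74 and 2.04 CPM in mutant against 4.42 and 3.85 CPM in WT; -1.19 ± 0.56, adjusted p 0.503 by edgeR) and over the mean of the conditions (-0.81 ± 0.28, adjusted p 0.305 by edgeR). Its mean difference was called without the filter on low counts (adjusted p 0.0236) and without 2-week mutant replicate 2 (-1.31, adjusted p 0.00567 by edgeR); mutant replicate 1 at 2 weeks then stands alone with 7 counts. Ly9 was at 68.8 and 67.1 CPM in mutant against 88.6 and 87.2 CPM in WT HSPCs after doxorubicin (-0.43 ± 0.15, adjusted p 0.334 by edgeR). At 2 weeks Slamf1 (-1.0 ± 0.38, adjusted p 0.442), Slamf9 (-1.32 ± 0.61, adjusted p 0.557) and Cd244a (-0.40 ± 0.18, adjusted p 0.548 by edgeR) had lower values in mutant HSPCs. In these 2-week libraries the genotypes did not overlap for Slamf1 or Cd244a. Without 2-week mutant replicate 2, Slamf1 was at -1.69 (adjusted p 0.0306 by edgeR), Slamf9 at -3.30 (adjusted p 0.00669 by edgeR) and Slamf6 at 1.03 (adjusted p 0.0243 by edgeR). Such a value rests on 1 mutant library, which is assumed to vary like the libraries of the other groups.

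In B cell libraries no receptor was called between genotypes by edgeR or DESeq2, and in edgeR 3 were under an unadjusted p of 0.05; 0.641% of all genes were called. Slamf6 was again above WT, at 410 and 409 CPM in mutant against 302 and 339 CPM in WT (0.35 ± 0.11, adjusted p 0.227 by edgeR). Slamf8 was at 0.136 and 0.184 CPM in mutant against 0.320 and 0.727 CPM in WT (-1.70 ± 0.50, adjusted p 0.185 by edgeR; 0.0483 without the filter on low counts), and Cd244a at 11.8 and 8.62 CPM in mutant against 15.7 and 16 CPM in WT (-0.64 ± 0.21, adjusted p 0.255 by edgeR). The genotypes did not overlap in any of these 3. The Slamf8 difference rests on 7 and 9 counts in mutant and 16 and 37 counts in WT. Of all 9 receptors, mutant libraries lay above WT ones in 2 and below in 3, and the genotypes overlapped in 4. The share of all genes without overlap was not computed, so these counts are description only.

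In T-labelled libraries neither edgeR nor DESeq2 called any of the 9, and 1 was under an unadjusted p of 0.05 in edgeR (0.0114% of all genes called). That was Slamf7, at 16.5 and 17.6 CPM in mutant against 21.2 and 21.2 CPM in WT (-0.25 ± 0.11, adjusted p 0.835 by edgeR). Slamf6 was at 16.5 and 14.5 CPM in mutant and 16.4 and 18.9 CPM in WT there, with overlap. Its mutant-WT difference there minus that in 2-week HSPCs was -0.87 ± 0.25 (adjusted p 0.588 by edgeR). That difference was called without the filter on low counts (adjusted p 0.0212) and without 2-week HSPC mutant replicate 2 (adjusted p 0.0341 by edgeR).

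**Figure D4:**
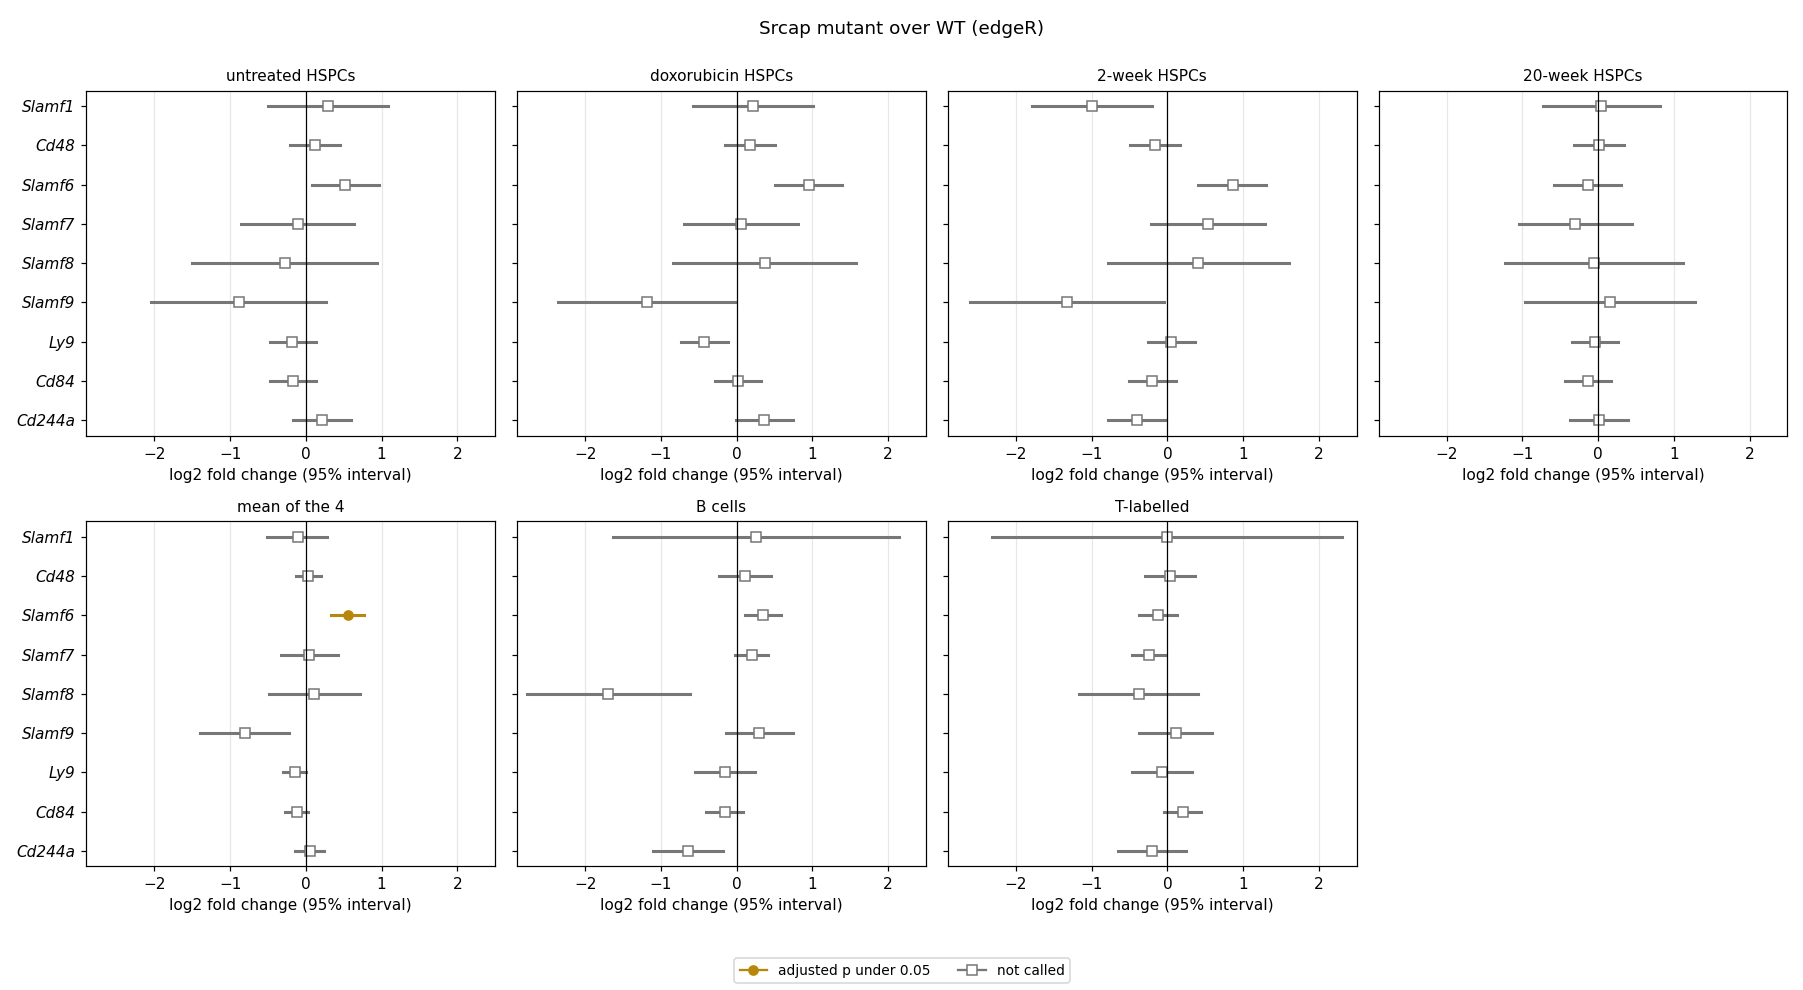
Mutant over WT differences of the 9 receptors as log2 fold changes with 95% intervals (horizontal axis), in 7 panels: HSPCs untreated, after doxorubicin, at 2 weeks and at 20 weeks, the mean of these 4, B cell and T-labelled libraries, with 2 libraries per genotype in each. Gold dots mark an edgeR adjusted p under 0.05; the single one is Slamf6 in the mean panel, at 0.55.

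**Figure D5:**
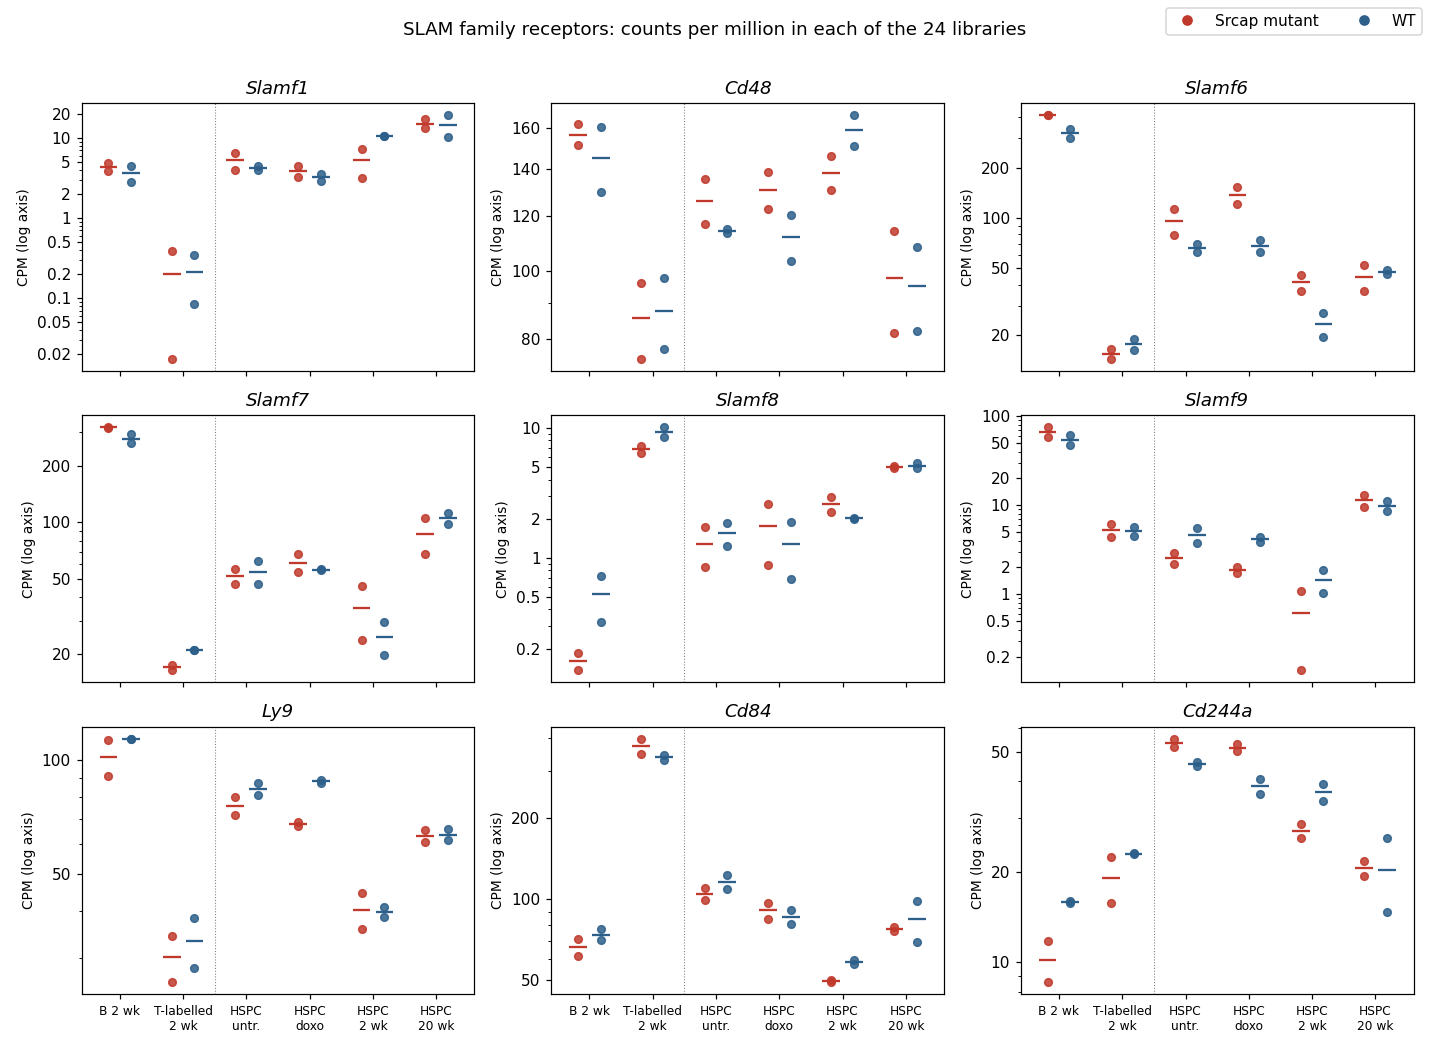
CPM of each of the 9 receptors in all 24 libraries (vertical axis, log scale), with mutant left of WT in each pair and a line at the mean of the 2 libraries. Slamf6, Slamf7 and Slamf9 peak in the B cell columns, Cd84 and Slamf8 in the T-labelled columns, and Slamf1 in the 20-week HSPC columns while it nearly vanishes in the T-labelled ones.

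The adaptors that couple SLAM receptors were low and differed by label. Sh2d1a (SAP) was at 1.36 to 3.09 CPM in B cell libraries and at no more than 1.66 CPM in any other (B cell over HSPC 3.29 ± 0.82, adjusted p 0.00359 by edgeR). Sh2d1b1 (EAT-2) was at 7.35 to 12.5 CPM in T-labelled libraries, 2.14 to 5.94 CPM in B cell libraries and 0.765 to 2.84 CPM in HSPCs (T-labelled over HSPC 3.11 ± 0.36, adjusted p 3.19e-06 by edgeR). Sh2d1b2 stayed at or below 0.133 CPM and was not tested. B cell libraries had more Sh2d1a (2.38, adjusted p 0.0197 by edgeR) and less Sh2d1b1 (-2.29, adjusted p 5.94e-05 by edgeR) than T-labelled ones.

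Of 14 listed signalling partners, 10 were higher and 2 lower in B cell libraries than in HSPCs, with a median of 0.51 against 0.06 over all genes, of which 28.3% were called higher and 25.5% lower. The 4 with the smallest p were Cd2, which binds CD48 in the mouse (6.90 ± 0.19, adjusted p 1.12e-11), the phosphatase gene Ptpn6 (1.69, adjusted p 3.17e-09), Becn1 (0.89, adjusted p 3.76e-07) and the kinase gene Csk (1.22, adjusted p 1.57e-06 by edgeR). In T-labelled libraries 8 were higher and 4 lower than in HSPCs, with a median of 0.59 against 0.03 over all genes, of which 32.6% were called higher and 29.3% lower, and with total counts 5 were higher and 6 lower, with a median of -0.25 against -0.79. The smallest p under TMM had Ptpn6 (2.64, adjusted p 2.21e-11) and the phospholipase gene Plcg1 (-2.36, adjusted p 6.18e-11 by edgeR).

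In HSPCs at 2 weeks 4 of the 14 were higher and 7 lower than untreated, with a median of -0.22 against -0.14 over all genes, of which 46.1% were called. Among them were the kinase genes Prkcq (-1.06, adjusted p 4.72e-07) and Lck (-0.95, adjusted p 3.55e-05 by edgeR). At 20 weeks 2 were higher and 1 lower, where 23.6% of all genes were called, and with total counts 1 was higher and 9 lower. Cd2 was at 2.09 to 5.25 CPM in untreated HSPCs, at 0.801 to 2.05 CPM at 2 weeks and at 10.4 to 19.5 CPM at 20 weeks. These ranges, in CPM without TMM scaling, did not overlap, but those of 2 weeks and untreated were only just apart (2.05 against 2.09). The Cd2 differences from untreated were -1.23 (adjusted p 0.00204 by edgeR) at 2 weeks and 2.61 ± 0.29 (adjusted p 1.15e-05 by edgeR) at 20 weeks. None of the 14 was called by edgeR between genotypes in any HSPC condition, their mean, B cell or T-labelled libraries. An unadjusted p under 0.05 was reached by 0 to 3 of them. DESeq2 called 1 of them after doxorubicin, Prkcq, among 265 genes. Over the mean of the HSPC conditions it called 1, Plcg1, among 324 genes.

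Across the 12 group means the receptors fell into patterns, given as descriptions over means that share libraries and cell labels. Slamf6 and Slamf7 had a Pearson r of 0.90, Ly9 and Slamf6 0.89, and Slamf7 and Slamf9 0.81, whereas Slamf6 and Slamf8 had -0.88 and Slamf1 and Cd84 -0.84. Among 11456 genes ranked by r of the log2 level, the closest to Slamf6 were Arpc5l (0.988), Ftx (0.986) and the pre-B receptor gene Vpreb3 (0.986). Closest to Slamf7 were the B cell receptor gene Cd79a (0.992), Ccr7 (0.985) and Gramd3 (0.981), and to Slamf9 Lpxn (0.993), Fcrla (0.989) and Fcrl1 (0.986). Closest to Cd84 were Soat1 (0.993), Dmxl2 (0.992) and Gsap (0.991), and among the closest to Slamf8 were Cst3 (0.941) and Cdc42bpb (0.935). For Slamf1 they were Rps16 (0.968), Rps15 (0.964) and Ehd3 (0.960), for Cd48 Trmt2a (0.989), Hnrnpl (0.986) and Cdan1 (0.983), for Ly9 Tmem123 (0.976), Zfp429 (0.974) and Dusp5 (0.972), and for Cd244a Vps35 (0.967), Ankrd28 (0.965) and Setd7 (0.961). Over the 8 HSPC group means alone, at most 1 of the 3 closest genes of any receptor was the same.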

How the data were processed

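The deposited files hold raw read counts per gene, which, per the file headers, the authors made with featureCounts 2.0.1 from paired reads, strand setting 2, against GENCODE M28. Also named in the submitters' processing notes are FastQC, STAR and Subread, and both mm39 and mm10; the header coordinates are GRCm39. The kit keeps strand, per the labels' protocols. Of 55414 gene identifiers, 52081 were given symbols from a GENCODE M21 table. CPM and CPM per kb of exonic length were computed from these counts.

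Tests used edgeR 4.0.16 (R 4.3.3, limma 3.58.1): robust quasi-likelihood fits with TMM scaling, filterByExpr (minimum count 10, minimum total 15) and 1 mean per group, for the 16 HSPC libraries (19522 genes), the 8 B cell and T-labelled libraries (17484 genes) and the 12 2-week libraries (19018 genes). The scripts were tested on simulated data. Adjusted p-values run over all genes of a fit, with a threshold of 0.05. Alternatives were DESeq2 1.42.0, another scaling (RLE), no filter, a replicate block, the compared groups alone, removal of immunoglobulin genes and Jchain, and each library left out; total-count scaling and 4 of the differences of differences were added after seeing the data. Similarity used log2(CPM + 0.5) of group means.

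The receptors and all gene lists were chosen with earlier results of these data known. All 9 receptors are named, with a fold change where the unadjusted p was under 0.05 or a call is discussed; of each other list, up to 4 called genes with the smallest p or the 3 highest, and the adaptors and Cd2 throughout. Replicate numbers showed no pairing between genotypes of one label and condition, where deviations from the group means correlated at -0.04 to 0.02 over 21152 genes. Between B cell and T-labelled libraries of one genotype the correlation was 0.02. The headers give these B cell and T-labelled libraries the same sample numbers. Such correlations cannot show whether libraries shared animals, and the fits took all libraries as separate. Header numbers differ from the labels' in 6 libraries; the labels were used. The values of some single genes are not reported here.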

Additional observations from a re-analysis of the deposited data

How the results depend on the processing

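For the 64 receptor differences of the planned comparisons with an unadjusted p under 0.05, of 926 alternative values 870 kept their direction and their side of the threshold, 42 lost a call, 13 gained one and 1 reversed, the Ly9 value of T-labelled libraries against HSPCs with total counts (-0.34). Over all 9 receptors and 23 comparisons, 42 calls were lost and 29 gained. The cause of these changes was not tested. With 2 libraries per group, each value rests on few samples, and a single library often decides a call near the threshold.

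The number of receptors called between genotypes after doxorubicin was 0, and 1 with DESeq2, with no filter on low counts and with the compared groups fitted alone. At 2 weeks it was 0, and 1 with DESeq2 and with no filter, and 0 to 3 when a library was left out, the 3 being without 2-week mutant replicate 2. Over the mean of the HSPC conditions it was 1, and 2 with no filter and 0 to 2 when a library was left out. In B cell libraries it was 0, and 1 with no filter. For T-labelled libraries against HSPCs it was 5, and 9 with total counts. For the genotype difference of the B cell minus HSPC difference it was 0, and 1 with no filter and 0 to 1 when a library was left out; for the T-labelled minus HSPC one it was 0, and 2 with no filter and 0 to 3 when a library was left out.

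With the replicate number as a block, Slamf6 over the mean of the HSPC conditions had an adjusted p of 0.0582 by edgeR in place of 0.046, so that 0 receptors were called, and Gm37065 one of 0.0742 in place of 0.0464; the libraries share only a number, and the pairing is not given by the labels.

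Over all genes, the genotype calls of edgeR depended strongly on the setting. The ranges given here run over the settings and do not include fits with a library left out, which leave 1 library in a group. In untreated HSPCs 0 genes were called, and 148 by DESeq2 and up to 467 over the settings; after doxorubicin 3, and 265 by DESeq2 and up to 474; at 2 weeks 27, and 259 by DESeq2 and 2 to 399; at 20 weeks 1, and 18 by DESeq2 and up to 149. Among the 148 DESeq2 calls in untreated HSPCs were 11 of the 12 granulocyte markers and 4 of the 9 erythroid markers. Untreated WT replicate 1 is the library rich in granulocyte markers, and its part in these calls was not tested. Over the mean of the conditions 26 genes were called, and 324 by DESeq2 and 13 to 618. In B cell libraries 112 were called, and 339 by DESeq2 and 3 to 590, and in T-labelled libraries 2, and 24 by DESeq2 and up to 145. After doxorubicin against untreated 3 were called, and 95 by DESeq2 and up to 421. At 20 weeks against untreated 4612 were called, and 4461 to 6386 over the settings. Genotype differences of the B cell and T-labelled minus HSPC differences called 3 and 2 genes, and 107 and 82 by DESeq2.

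Total counts in place of TMM changed the share of called genes that were higher to 35.2%, against 54.8% with TMM, for 20 against 2 weeks, to 29.7%, against 52.6%, for T-labelled libraries against HSPCs, and to 74.6%, against 51.0%, for B cell against T-labelled libraries. The T-labelled libraries had TMM factors of 0.617 to 0.68, against 1.137 to 1.202 in 2-week HSPCs.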
